A study of Mus musculus with 4 samples.

Results

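The regulators described here are 9 transcription factors of cortical projection neurons, *Tbr1*, *Bcl11b*, *Fezf2*, *Sox5*, *Foxp2*, *Cux1*, *Cux2*, *Pou3f2* and *Pou3f3*. They were chosen by name from the 23038 genes measured in mouse embryonic cortex at E14.5, together with the 17 of 38240 alternative splicing comparisons that carry their gene identifiers. Polyadenylated RNA was sequenced from the cortex of 2 control and 2 *Qk* cKO embryos. In both groups, according to the paper, both *Qk* alleles were floxed (*Qk* fl/fl), while the sample labels call the controls wild type. The *Qk* cKO littermates also carried the *Nestin*-Cre transgene, whose promoter drives Cre recombinase in neural progenitor cells, and Cre removes exon 2 of *Qk*, the gene of the RNA-binding protein Qki. Neurons in these cortices inherit the deletion from their progenitors, while cells of other origin keep exon 2.

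The neocortex is built from the inside out. Radial glia in the ventricular zone give rise to deep-layer neurons first and upper-layer neurons later, and a network of transcription factors fixes the layer and the axon target of each neuron. Fezf2 and its downstream factor Bcl11b (Ctip2) specify subcerebral projection neurons of layer 5, Tbr1 specifies corticothalamic neurons of layer 6 and represses *Fezf2*, and Sox5 times the sequence of deep-layer fates. Foxp2 marks layer 6 neurons. Cux1 and Cux2 mark upper layers and shape dendrites and spines there, and the POU factors Pou3f2 (Brn2) and Pou3f3 (Brn1) act together in the production and migration of upper-layer neurons. At E14.5 deep-layer neurons are already in the cortical plate and upper-layer neurons are being produced, so transcripts of both groups are present.

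The alternative parts whose use could be measured in these regulators are all coding. Those of most tested comparisons are shown, because the splicing results below refer back to them. The part that is either kept or left out is in capitals and the 15 nt of the neighbouring exons on each side is in lower case, read 5′ to 3′ on the minus strand from the GENCODE M21 transcripts on GRCm38, the same build as mm10. The first pair lies at the start of one *Cux1* exon, exon 11 of transcript Cux1-201, where 3 alternative 3′ splice sites add 78 nt (chr5:136326933-136327010), 6 nt (chr5:136326933-136326938) or nothing. The next is the 105-nt end of exon 2 of Sox5-201 (chr6:144154992-144155096), kept or left out by alternative 5′ splice sites. The others are cassette exons, namely exon 9 of Sox5-201 (chr6:143907387-143907533), exon 3 of Bcl11b-201 (chr12:107965672-107965887) and exon 16 of Cux1-201 (chr5:136311495-136311560).
Cux1 78-nt segment: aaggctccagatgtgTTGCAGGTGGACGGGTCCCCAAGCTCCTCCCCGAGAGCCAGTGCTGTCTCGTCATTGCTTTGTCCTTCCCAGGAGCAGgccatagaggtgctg
Cux1 6-nt segment: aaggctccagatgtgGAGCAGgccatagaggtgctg
Sox5 105-nt segment: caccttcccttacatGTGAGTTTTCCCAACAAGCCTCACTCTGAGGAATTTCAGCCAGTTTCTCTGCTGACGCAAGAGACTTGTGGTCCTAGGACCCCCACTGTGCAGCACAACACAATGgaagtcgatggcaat
Sox5 147-nt exon: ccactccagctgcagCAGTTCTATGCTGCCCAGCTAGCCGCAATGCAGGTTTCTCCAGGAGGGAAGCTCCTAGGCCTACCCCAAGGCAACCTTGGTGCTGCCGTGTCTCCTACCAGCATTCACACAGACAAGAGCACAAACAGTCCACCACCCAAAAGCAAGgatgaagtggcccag
Bcl11b 216-nt exon: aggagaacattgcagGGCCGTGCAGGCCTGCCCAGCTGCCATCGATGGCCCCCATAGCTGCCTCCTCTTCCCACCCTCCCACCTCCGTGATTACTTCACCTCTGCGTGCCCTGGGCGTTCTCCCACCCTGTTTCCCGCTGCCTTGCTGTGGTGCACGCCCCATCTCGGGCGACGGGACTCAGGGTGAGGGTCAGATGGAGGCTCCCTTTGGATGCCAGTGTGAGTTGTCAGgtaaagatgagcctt
Cux1 66-nt exon: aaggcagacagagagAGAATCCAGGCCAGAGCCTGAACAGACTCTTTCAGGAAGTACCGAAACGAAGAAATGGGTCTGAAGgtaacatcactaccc
Each of these lengths is a multiple of 3, so that with or without the segment the reading frame is kept. The 147-nt exon of *Sox5* holds 49 codons, the 216-nt exon of *Bcl11b* 72, the 105-nt segment of *Sox5* 35, the 78-nt segment of *Cux1* 26 and the 66-nt exon of *Cux1* 22.

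The samples held 37942046 to 42994832 tags on genes, a tag being the unit counted by Quantas, and all 9 regulators were far above the counting limit with 1704 to 10728 tags in each sample. The deletion was checked on junction tags, since the total *Qk* level includes RNA without exon 2. For every 100 tags on the junction of exons 3 and 4, control embryos 1 and 2 had 110.6 and 128.6 tags on the junction of exons 2 and 3, and *Qk* cKO embryos 1 and 2 had 7.02 and 8.19. Total *Qk* reached 21.1 and 21.7 RPKM (tags scaled to exon length and library size) in control and 32.5 and 34.2 RPKM in *Qk* cKO. Libraries also differed within the groups. The summed level of 12 hypothalamic and diencephalic markers was 11.4 and 29.0 RPKM in control embryos 1 and 2 and 9.54 and 3.21 RPKM in *Qk* cKO embryos 1 and 2, so that control embryo 2 stood apart. A large part of this sum was 1 gene, *Tcf7l2*, whose own groups overlapped. In the sum both *Qk* cKO embryos also lay below both controls, so genotype and a difference between single libraries cannot be told apart here. The list was chosen with earlier results of these data known, and several of its markers are in the study's own list from these samples. The separation of the groups is therefore not independent evidence. Each replicate is called an embryo here, although the labels, which call the replicates independent, do not tell how many animals each holds.

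The regulators were expressed at very different levels, and their order was nearly the same in all 4 embryos. RPKM is a level per length and can be compared between genes. Averaged over the 4 embryos, *Tbr1* was highest at 46.1 RPKM, above 91.4% of the 18834 genes tested, followed by *Cux1* at 41.7 RPKM. *Pou3f3* at 28.3 RPKM and *Fezf2* at 27.0 RPKM came next, then *Bcl11b* at 22.0 RPKM and *Sox5* at 18.6 RPKM. *Cux2* had 11.9 RPKM, and *Pou3f2* at 7.20 RPKM and *Foxp2* at 6.80 RPKM were lowest, *Foxp2* still above 57.3% of genes. The ranges of *Tbr1* and *Cux1*, of *Pou3f3* and *Fezf2*, and of *Pou3f2* and *Foxp2* overlapped across the embryos, and all other neighbours in this order were separate. Among the paralogs, *Pou3f3* lay above *Pou3f2* in all 4 embryos. The gene-level value of *Cux1* lay above that of *Cux2*, but it includes transcripts of CASP, a protein without the homeodomain that is made from the same locus, so the place of the homeodomain transcripts in this order is not known. Neither deep-layer nor upper-layer regulators were uniformly the more abundant.

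**Figure D1:**
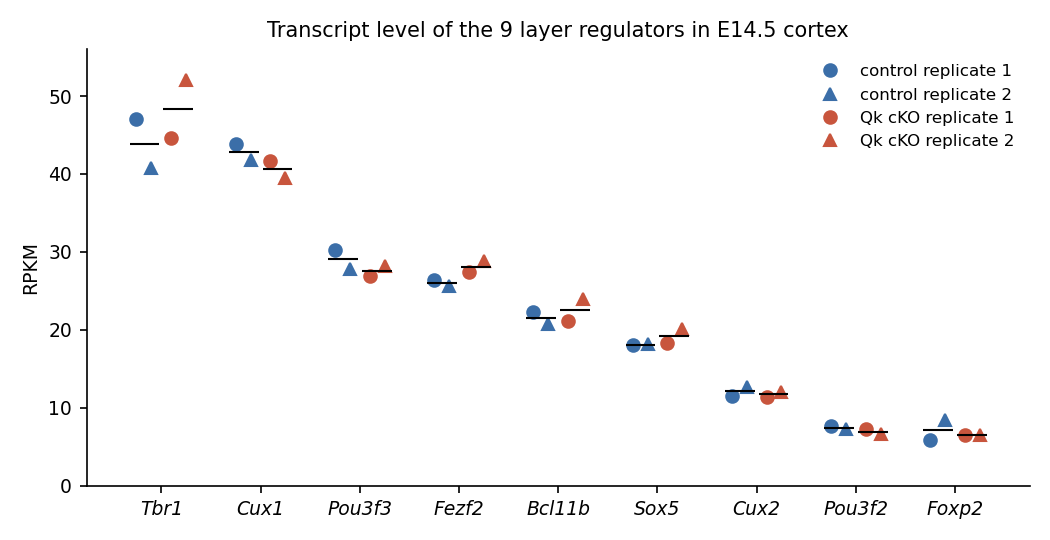
Transcript level in RPKM (y axis, linear from 0) of the 9 regulators, ordered by their mean over all embryos. Circles and triangles are replicates 1 and 2, blue is control, red is *Qk* cKO, and black bars are group means of 2 embryos. *Tbr1* ranges from 40.8 to 52.0 RPKM and *Foxp2* from 5.82 to 8.41 RPKM.

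Steady-state levels of the 9 regulators were compared next, to ask whether loss of Qki changed the transcripts that fix projection neuron identity. None of the 9 was called in either direction (edgeR's quasi-likelihood test, p below 0.01 and FDR below 0.1), against 110 or 0.584% of all genes tested, 0.207% higher and 0.377% lower. Neither DESeq2 nor edgeR's exact test called any of them. At an unadjusted p below 0.05 there was 1 regulator by edgeR's quasi-likelihood test, *Tbr1*, and 0 by the other 2 tools, where 8.76% of all genes lay in the main test. The 95% intervals of the 9 changes together ran from 0.782-fold to 1.23-fold, so that changes beyond these bounds lie outside the intervals. RNA from whole cortex was measured, so fewer cells of a type and less RNA per cell cannot be told apart.

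Among the deep-layer regulators, *Tbr1* had 47.0 and 40.8 RPKM in control embryos 1 and 2 and 44.6 and 52.0 RPKM in *Qk* cKO embryos 1 and 2. The groups overlapped, *Qk* cKO embryo 2 being highest and control embryo 2 lowest. Its log2 fold change of *Qk* cKO against control was 0.15 (SE 0.07, edgeR FDR = 0.540). The value was 0.05 without control embryo 2, 0.05 without *Qk* cKO embryo 2, 0.26 without control embryo 1 and 0.24 without *Qk* cKO embryo 1.

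*Fezf2*, the zinc-finger gene at the top of the subcerebral programme, had 26.5 and 25.6 RPKM in control and 27.4 and 28.8 RPKM in *Qk* cKO. Both *Qk* cKO embryos lay above both controls, by a small margin. The log2 fold change was 0.12 (SE 0.07, edgeR FDR = 0.679). *Bcl11b*, which acts downstream of Fezf2 in layer 5 neurons, had 22.2 and 20.7 RPKM in control and 21.1 and 24.0 RPKM in *Qk* cKO, with overlapping groups. The log2 fold change of *Bcl11b* was 0.08 (SE 0.06, edgeR FDR = 0.784), and it was -0.01 without *Qk* cKO embryo 2.

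*Sox5*, a SoxD transcription factor gene, had 18.0 and 18.2 RPKM in control and 18.3 and 20.1 RPKM in *Qk* cKO. Only *Qk* cKO embryo 2 was clearly higher, although the groups did not overlap, and the log2 fold change was 0.09 (SE 0.06, edgeR FDR = 0.722). *Foxp2*, a forkhead gene, had 5.82 and 8.41 RPKM in control and 6.49 and 6.48 RPKM in *Qk* cKO. The 2 *Qk* cKO values were almost equal and lay between the controls. The log2 fold change of *Foxp2* was -0.12 (SE 0.11, edgeR FDR = 0.855). It turned to 0.16 without control embryo 2 and was -0.36 without control embryo 1. The control embryo with the higher *Foxp2* level was also the one with the highest summed level of hypothalamic and diencephalic markers, 29.0 RPKM against 11.4 RPKM in the other control, and the part of such cells in the *Foxp2* level was not tested. Of those markers, *Tcf7l2*, a thalamic transcription factor gene, had 6.58 and 16.7 RPKM in control and 6.99 and 1.56 RPKM in *Qk* cKO. Of the other regulators only *Cux2* was highest in control embryo 2, with 11.5 and 12.7 RPKM in control and 11.4 and 12.0 RPKM in *Qk* cKO. These are values of single embryos, *Tcf7l2* was picked after its values were seen, and no cause was tested.

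Among the upper-layer regulators, *Cux1*, a homeobox gene of layers 2 to 4, had 43.8 and 41.8 RPKM in control and 41.7 and 39.5 RPKM in *Qk* cKO. Both *Qk* cKO values were below both control values, but control embryo 2 and *Qk* cKO embryo 1 were within rounding of each other. The log2 fold change was -0.06 (SE 0.06, edgeR FDR = 0.855). *Cux2* had 11.5 and 12.7 RPKM in control and 11.4 and 12.0 RPKM in *Qk* cKO, with a log2 fold change of -0.03 (SE 0.08, edgeR FDR = 0.944) that became 0.03 without control embryo 2. The groups overlapped.

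*Pou3f2* had 7.64 and 7.27 RPKM in control and 7.26 and 6.61 RPKM in *Qk* cKO. The groups did not overlap, but control embryo 2 and *Qk* cKO embryo 1 were nearly equal, and the log2 fold change was -0.09 (SE 0.10, edgeR FDR = 0.855). Its partner *Pou3f3* had 30.3 and 27.8 RPKM in control and 26.9 and 28.2 RPKM in *Qk* cKO, overlapping groups, with a log2 fold change of -0.07 (SE 0.07, edgeR FDR = 0.855). The transcripts of both POU genes consist of 1 exon in the annotation.

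**Figure D2:**
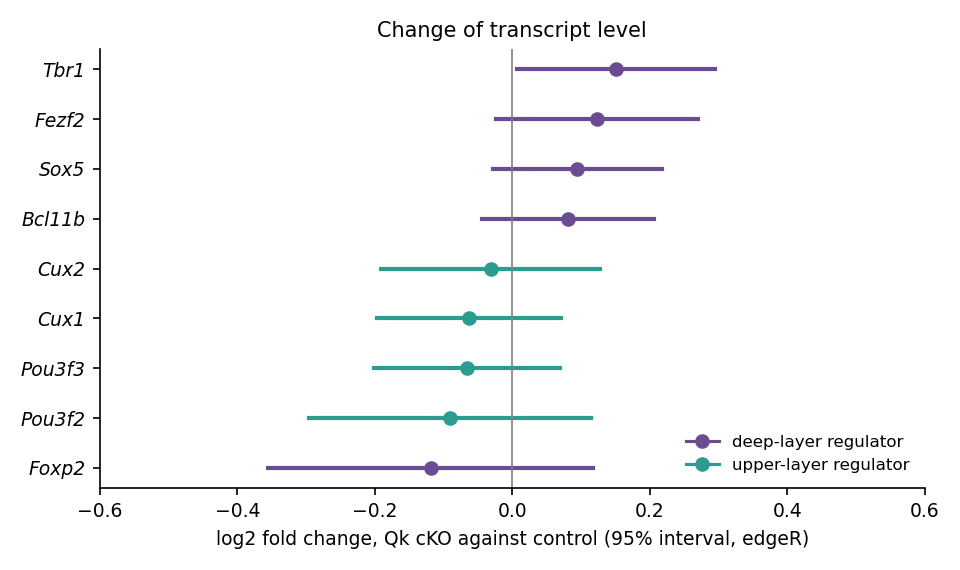
Log2 fold change of *Qk* cKO against control (x axis) of each regulator, with its 95% interval from edgeR's quasi-likelihood test over 2 embryos per group. Purple marks deep-layer and green upper-layer regulators. Every interval except that of *Tbr1* (0.01 to 0.29) includes 0, and *Tbr1* was not called after adjustment.

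The 5 deep-layer regulators had a median log2 fold change of 0.09 and the 4 upper-layer regulators one of -0.06, where the median of all genes was -0.003. In 2 of the 5 deep-layer genes (*Fezf2* and *Sox5*) both *Qk* cKO embryos were above both controls, as in 16.3% of all genes, and in 2 of the 4 upper-layer genes (*Cux1* and *Pou3f2*) both were below, as in 20.6% of all genes. Non-overlapping groups, in 4 of the 9, are thus about as frequent as the 36.9% found over all genes and the 40.6% over genes with a mean of at least 1 RPKM in both groups. With 2 embryos against 2, an exact permutation test cannot go below p = 0.333. The genes with the sample-to-sample pattern most like that of *Tbr1*, the regulator with the smallest p, were *Fam82b*, *Eri2* and *Zfp652*, at distances of 0.020, 0.020 and 0.028 in log2 units over 4 samples among 12568 genes compared.

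Other genes of layer identity and projection neurons were examined as a fixed list of 39, all of which were measured. None was called in either direction by edgeR's quasi-likelihood test, DESeq2 or edgeR's exact test, and 4, 2 and 0 respectively had an unadjusted p below 0.05. In the main test this is 10.3% of the list, near the 8.76% of all genes and the 10.9% of genes with a mean of at least 1 RPKM in both groups. The median log2 fold change of the list was -0.01. The 4 genes with a p below 0.05 in the main test were *Lhx2*, *Nfia*, *Unc5c* and *Sox4*. *Lhx2*, a LIM homeobox gene of cortical progenitors and later neurons, had 57.3 and 52.8 RPKM in control and 50.5 and 48.4 RPKM in *Qk* cKO (log2 fold change -0.14, edgeR FDR = 0.420). *Sox4* had 100.04 and 107.3 RPKM in control and 89.4 and 94.7 RPKM in *Qk* cKO (log2 fold change -0.16, edgeR FDR = 0.481). *Nfia* had 11.1 and 12.2 RPKM in control and 12.2 and 13.3 RPKM in *Qk* cKO (log2 fold change 0.15, edgeR FDR = 0.431). *Unc5c*, a netrin receptor gene, had 2.16 and 2.72 RPKM in control and 2.19 and 1.65 RPKM in *Qk* cKO, a log2 fold change of -0.33 (edgeR FDR = 0.455). It was the only list member called without *Qk* cKO embryo 1, with a log2 fold change of -0.57 (edgeR FDR = 0.0169).

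*Tle4*, a corepressor gene of layer 6 that is also in this list, had 23.8 and 25.4 RPKM in control and 26.4 and 24.3 RPKM in *Qk* cKO. The groups overlapped. Among 11 paralogs of the 9 regulators, none was called by edgeR's quasi-likelihood test. The T-box paralog *Eomes* of intermediate progenitors, closest to *Tbr1* in family, had 47.8 and 43.8 RPKM in control and 44.5 and 47.5 RPKM in *Qk* cKO. *Sox6*, the other SoxD gene with cortical roles, had 9.22 and 9.09 RPKM in control and 10.3 and 9.84 RPKM in *Qk* cKO (log2 fold change 0.15, edgeR FDR = 0.401), and *Fezf1* had 3.66 and 5.07 RPKM in control and 3.48 and 2.81 RPKM in *Qk* cKO (log2 fold change -0.46, edgeR FDR = 0.335).

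Markers of the other cells of the tissue were read the same way. Of 12 radial glia markers, 4 were called lower in *Qk* cKO and 0 higher by edgeR's quasi-likelihood test. The 12 markers summed to 1711 and 1592 RPKM in control and 1392 and 1329 RPKM in *Qk* cKO. Most of this drop was *Fabp7*, and the other 11 markers summed to 722.3 and 690.9 RPKM in control and 689.6 and 662.2 RPKM in *Qk* cKO. Those called were *Ttyh1*, *Tnc*, *Fabp7* and *Slc1a3*. The first 3 are among transcripts that the study listed from these same samples, so their direction is not independent evidence. *Slc1a3* was not called by DESeq2 (FDR = 0.141) or edgeR's exact test (FDR = 0.229). Only *Ttyh1* of the 4 was called after weakly expressed genes were left out with edgeR's filterByExpr. *Fabp7*, a fatty acid binding protein gene of radial glia, went from 988.9 and 900.9 RPKM to 702.7 and 666.6 RPKM (log2 fold change -0.45, edgeR FDR = 0.0153). Of 14 general neuron markers and 8 intermediate progenitor markers 0 were called, where 0.584% of all genes were. The intermediate progenitor markers summed to 210.9 and 202.6 RPKM in control and 198.6 and 195.3 RPKM in *Qk* cKO, without overlap. In 4 of these 8 both *Qk* cKO embryos were below both controls, and in 0 above, against 20.6% and 16.3% of all genes. The general neuron markers summed to 1583 and 1698 RPKM in control and 1612 and 1481 RPKM in *Qk* cKO, overlapping groups. Of 8 Cajal-Retzius cell markers, *Lhx1* alone was called, lower in *Qk* cKO (log2 fold change -0.94, edgeR FDR = 0.0437). With edgeR's filterByExpr it was not called (FDR = 0.312). *Reln*, the defining marker, had 24.6 and 22.2 RPKM in control and 26.4 and 25.1 RPKM in *Qk* cKO. None of 13 subpallial markers was called.

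Of the 12 hypothalamic and diencephalic markers, 6 were called lower in *Qk* cKO (*Nr5a1*, *Six6*, *Pomc*, *Nkx2-2*, *Sox14* and *Otp*). Most of them are also in the study's list of these samples, and all 6 were highest in control embryo 2. With edgeR's filterByExpr only *Nr5a1* of the 6 was called. Of 17 non-neural markers measured, the haemoglobin gene *Beta-s* was called higher by edgeR's quasi-likelihood test (log2 fold change 0.45, FDR = 0.0620). It was not called by DESeq2 (FDR = 0.581) or edgeR's exact test (FDR = 0.158). The part of these lists in the levels of the 9 regulators was not tested. The summed level of the 9 regulators themselves was 212.8 and 203.2 RPKM in control and 205.03 and 217.7 RPKM in *Qk* cKO, with overlapping groups.

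**Figure D3:**
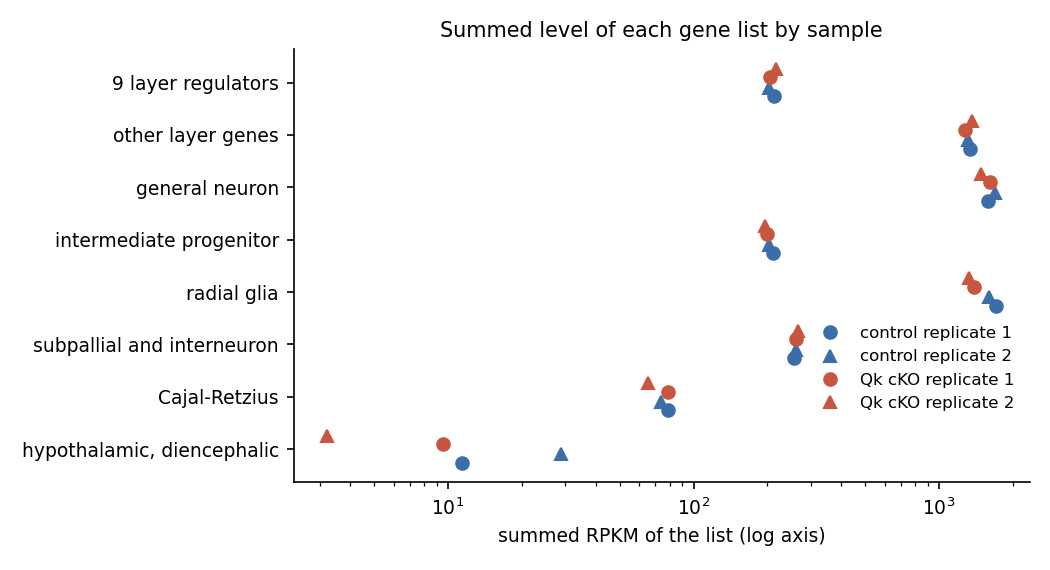
Summed RPKM (x axis, log scale) of the 9 regulators and of 7 marker lists, one point per embryo. Circles and triangles are replicates 1 and 2, blue is control and red is *Qk* cKO. The regulators lie between 203.2 and 217.7 RPKM in all embryos, radial glia markers, most of whose sum is *Fabp7*, are lower in both *Qk* cKO embryos, and the hypothalamic and diencephalic markers spread from 3.21 to 29.0 RPKM.

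For alternative splicing of the regulators, tags were summed over the embryos of a group and tested by Fisher's exact test, which leaves the variation between embryos out. The quantity compared is inclusion, the fraction of junction tags that support the longer form. For a cassette exon, the tags on its inclusion junctions are averaged before the fraction is taken. Δ*I* is inclusion in control minus inclusion in *Qk* cKO. *Tbr1*, *Fezf2*, *Pou3f2* and *Pou3f3* had no annotated event. Of the 17 comparisons in the other 5 genes, 9 reached the coverage of 20 tags that the test required, 1 in *Bcl11b*, 3 in *Sox5* and 5 in *Cux1*. Coverage is the smallest of the junction tag totals of each group and of each form. It is low wherever a form is rare and is not the total depth. None of the 9 was called at p below 0.01 and FDR below 0.1, where 7.5% of all 11500 tested comparisons were, nor by edgeR's interaction test, which called 0.557% of them. At an unadjusted p below 0.05 there was 1 of 9 by Fisher's exact test and 0 of 9 by edgeR's interaction test, against 16.8% of all comparisons by Fisher's exact test. In 3 of the 9 the groups did not overlap, against 37.9% over all comparisons.

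Intervals below are 95% Wilson intervals of a fraction, or the Newcombe interval of a difference built from them, and cover counting error only. The 9 tested comparisons had a median coverage of 175.9 tags, against 65.8 over all tested comparisons, and the 8 others a coverage of 0 to 18.

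In *Cux1*, the 3 forms of exon 11 shared their tags as follows. The longest form, with 78 nt, had 44.5 and 42.5 junction tags in control and 62.2 and 26.7 in *Qk* cKO. The form with 6 nt had 74.5 and 68.5 junction tags in control and 99.8 and 100.5 in *Qk* cKO. The form with neither had 140.03 and 141 junction tags in control and 149.95 and 155.8 in *Qk* cKO. It was thus the most used in all 4 embryos. In the longest form the *Qk* cKO embryos lay on either side of the controls.

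Inclusion of the 72 nt that separate the longest from the 6-nt form was 0.374 and 0.383 in control and 0.384 and 0.210 in *Qk* cKO (Δ*I* 0.071, interval -0.011 to 0.152, Fisher's exact test p = 0.0482, FDR = 0.301). edgeR's interaction test, which includes the variation between embryos, gave p = 0.171. This result rests on *Qk* cKO embryo 2. Without it Δ*I* was -0.006, and without *Qk* cKO embryo 1 it was 0.168 and was called (Fisher's exact test FDR = 0.0629). Inclusion of the 6 nt against the form with neither was 0.347 and 0.327 in control and 0.400 and 0.392 in *Qk* cKO, groups that did not overlap (Δ*I* -0.059, interval -0.120 to 0.004, Fisher's exact test FDR = 0.607). The third pair, the 78 nt against neither, had a Δ*I* of 0.011 (interval -0.049 to 0.071). These 3 comparisons share splice sites and are not independent.

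The other *Cux1* parts lie in the transcripts that encode the homeodomain. A 306-nt segment at the start of an exon, set by alternative 3′ splice sites, was included at 0.737 and 0.743 in control and 0.836 and 0.800 in *Qk* cKO. The groups did not overlap, but each value rests on few tags, 35 to 51 in all, and the interval of Δ*I* was -0.206 to 0.044 (Δ*I* -0.078, Fisher's exact test FDR = 0.879). The 66-nt exon was included at 0.870 and 0.829 in control and 0.838 and 0.817 in *Qk* cKO, with a Δ*I* of 0.022 (interval -0.090 to 0.137).

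Of the *Sox5* comparisons, 1 had groups that did not overlap. The 105-nt segment was included at 0.266 and 0.193 in control and 0.286 and 0.307 in *Qk* cKO. Both *Qk* cKO embryos were higher than both controls, and control embryo 2 was lowest. Δ*I* was -0.064 (interval -0.118 to -0.009, Fisher's exact test p = 0.166, FDR = 0.579), and with junction tags only p was 0.0219 (FDR = 0.330). edgeR's interaction test gave p = 0.342. Without control embryo 2, Δ*I* was -0.030, and without control embryo 1 it was -0.103.

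The 147-nt exon of *Sox5* was in most transcripts, with an inclusion of 0.779 and 0.701 in control and 0.754 and 0.763 in *Qk* cKO. Both *Qk* cKO values lay between the control values. Δ*I* was -0.018 (interval -0.082 to 0.045, Fisher's exact test FDR = 0.995), so that a difference above about 0.08 in either direction lies outside the counting interval. A 3-nt choice at the start of another *Sox5* exon, which adds 1 codon, had an inclusion of 0.067 and 0.042 in control and 0.051 and 0.120 in *Qk* cKO (Δ*I* -0.033, Fisher's exact test FDR = 0.743).

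The 216-nt exon of *Bcl11b* was mostly skipped. Its inclusion was 0.160 and 0.160 in control and 0.140 and 0.242 in *Qk* cKO, where *Qk* cKO embryo 2 was again apart from the other 3. Δ*I* was -0.032 (interval -0.078 to 0.016, Fisher's exact test FDR = 0.988), and it was 0.020 without *Qk* cKO embryo 2. The 366-nt exon upstream of it was included at 0.986 or more in all 4 embryos and had too few skipping tags to be tested.

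**Figure D4:**
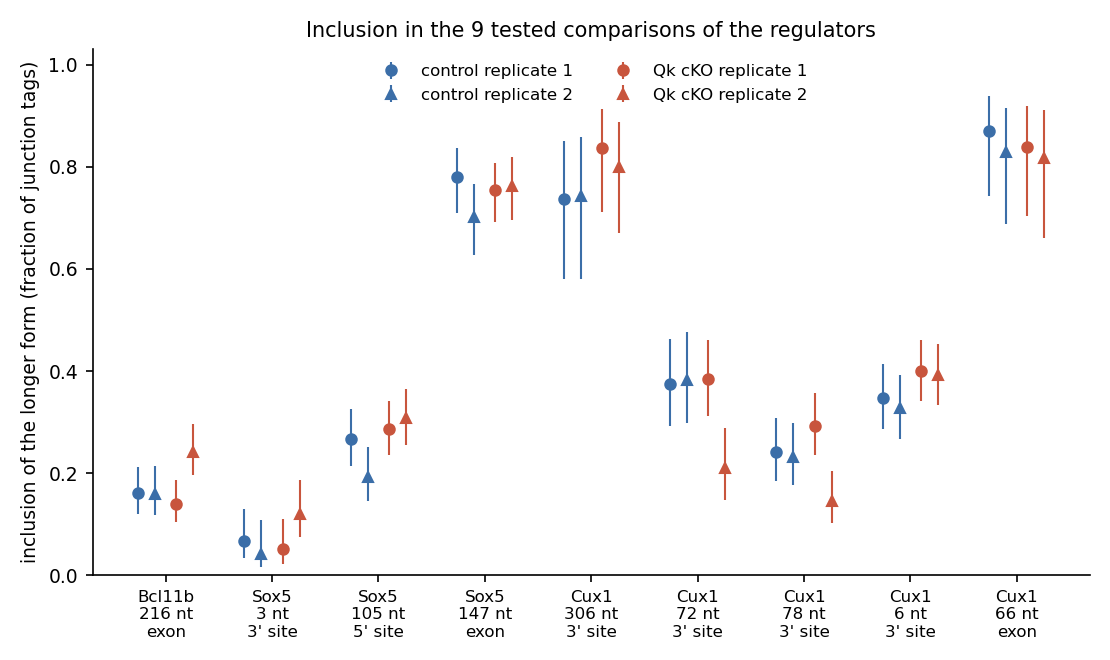
Inclusion of the longer form (y axis, fraction of junction tags, 0 to 1) in the 9 tested comparisons, each named by gene, length of the alternative part and kind of choice. For cassette exons the tags on the inclusion junctions are averaged first. Circles and triangles are replicates 1 and 2, blue is control, red is *Qk* cKO, and bars are 95% Wilson intervals. *Qk* cKO embryo 2 is apart from the others in the 72-nt choice of *Cux1* (0.210) and in the 216-nt exon of *Bcl11b* (0.242).

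The remaining comparisons fell short of a coverage of 20 tags, which can reflect a rare form and not a low total. The 121-nt exon of *Cux2*, which is not a multiple of 3, was included at 0.928 to 0.938 in the 4 embryos. Its coverage of 18 tags is that of the skipping form. In *Foxp2*, 3 alternative 3′ splice sites at the start of an exon had a coverage of 4 to 12 tags, and the 63-nt choice was included at 0.917 and 1 in control and 0.844 and 0.857 in *Qk* cKO.

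The *Cux1* locus holds a second kind of transcript, which the tags per gene do not separate. CASP, a Golgi protein, is made from the same promoter region and first exons but has its own last exons and no homeodomain. In the annotation 6 *Cux1* transcripts end in the homeodomain exons and 5 in the exons of CASP. After the values above were seen, junctions particular to each end were compared. The CASP junction had 177 and 155 tags in control and 150 and 122 in *Qk* cKO. For the homeodomain form, the junction into the exon with the 306-nt segment had 38 and 35 tags in control and 51 and 50 in *Qk* cKO. The junctions of the 66-nt exon, used by 5 of the homeodomain transcripts and none of CASP, had 46 and 41 tags in control and 44 and 35 in *Qk* cKO, counted as inclusion tags per junction plus skipping tags. Scaled to the tags on genes of each library, as CPM, CASP junction tags were 4.27 and 4.09 in control and 3.49 and 2.97 in *Qk* cKO, which put both *Qk* cKO embryos below both controls. The homeodomain form was at 0.917 and 0.922 in control and 1.19 and 1.22 in *Qk* cKO by the first of its junctions, and at 1.11 and 1.08 in control and 1.02 and 0.852 in *Qk* cKO by those of the 66-nt exon.

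The 2 measures of the homeodomain form thus went in opposite directions between the groups, and no direction is given for it. By the first, the CASP junction held 82.3% (interval 76.7 to 86.8) and 81.6% (75.5 to 86.4) of the form-specific tags in control, and 74.6% (68.2 to 80.1) and 70.9% (63.7 to 77.2) in *Qk* cKO, a difference between the summed tags of 9.05 percentage points (7.35 to 11.05 with each embryo left out in turn). By the second, the share was 79.4% and 79.1% in control and 77.3% and 77.7% in *Qk* cKO, a difference of 1.74 percentage points. The change of the share therefore depends on which junction stands for the homeodomain form. Since these measures were chosen after values were seen, they carry no test. The junctions lie at different distances from the ends of their transcripts, so the share is not a share of transcripts. Tags on the exon 11 junctions, which both kinds of transcript use, on the same scale were 6.25 and 6.64 in control and 7.26 and 6.89 in *Qk* cKO. The RPKM of *Cux1* given above is therefore a sum over both kinds of transcript and not the level of the layer regulator alone.

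**Figure D5:**
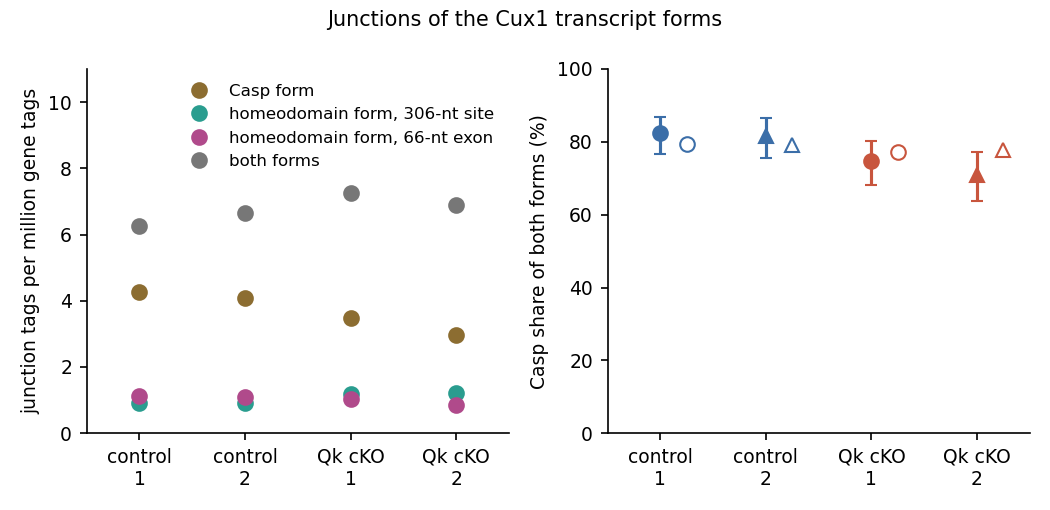
Left, junction tags scaled to tags on genes as CPM (y axis, linear from 0) in each embryo for the CASP form, the homeodomain form by 2 sets of junctions, and exon 11, which both forms use. Right, the CASP junction as a percentage of form-specific tags, with the 306-nt site as the homeodomain form (filled, with 95% Wilson intervals) or the 66-nt exon (open); blue is control, red is *Qk* cKO. The CASP junction is lower in both *Qk* cKO embryos, the homeodomain form is higher by one measure and lower by the other, and the share differs by 9.05 or 1.74 percentage points.

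Splicing of the other 39 layer genes was examined over 47 tested comparisons in 17 genes, and 4 were called in 3 genes. That is 8.51% of the list, near the 7.5% of all comparisons. They were in *Auts2*, with 2 comparisons, *Nfib* and *Foxp1*, which are also among genes that the study listed from these samples. edgeR's interaction test called none of the 4. A 45-nt exon of *Auts2*, a gene of neuronal migration, was included at 0.700 and 0.708 in control and 0.819 and 0.799 in *Qk* cKO (Δ*I* -0.104, Fisher's exact test FDR = 0.0287). The other *Auts2* comparison was a pair of mutually exclusive exons, where the value is the use of the 5′ exon and not of a longer form. That use was 0.093 and 0.109 in control and 0.163 and 0.111 in *Qk* cKO (Δ*I* -0.035, Fisher's exact test FDR = 0.0743). An alternative 3′ splice site of *Foxp1*, a paralog of *Foxp2*, had an inclusion of 0.523 and 0.623 in control and 0.689 and 0.738 in *Qk* cKO (Δ*I* -0.149, Fisher's exact test FDR = 0.0817). *Nfib* had an alternative 5′ splice site at 0.465 and 0.498 in control and 0.650 and 0.572 in *Qk* cKO (Δ*I* -0.128, Fisher's exact test FDR = 0.0613). The groups did not overlap in any of these.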

How the data were processed

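Cortical mRNA of 2 control and 2 *Qk* cKO embryos was grouped by the sample labels. The authors aligned the reads to mm10 with OLego and quantified them with Quantas (versions not given in the sources used here), and deposited estimated counts of tags per gene, their RPKM, and estimated counts of tags per isoform and junction. Tags were rounded to whole numbers and compared with edgeR 4.0.16 (quasi-likelihood test, TMM, R 4.3.3) over the 18834 genes that had a tag in some sample (a minimum of 1). For splicing, isoform tags were summed within a group, rounded and tested by Fisher's exact test. Coverage, as defined above, had to be at least 20 junction tags, and FDR was adjusted within each of 6 event types. Inclusion and Δ*I* use junction tags, the test all isoform tags. Thresholds were p below 0.01 and FDR below 0.1. Alternatives were DESeq2 1.42.0 and others given below. The members and gene lists were chosen with earlier results of these data known. The genes named are all 9 regulators and every comparison with coverage, and from the lists those called. Where none was called, the plan was to name the gene with the smallest p. Instead, the other layer genes and the paralogs have several genes of small unadjusted p named, and some lists have none. *Tle4*, *Eomes*, *Tcf7l2* and *Reln* were added after their values were seen. Of the listed symbols, 3 were found under older names (*Zfp238*, *Mtap2*, *Beta-s*) and *Hbb-bt* was not found. The p-values of edgeR and DESeq2 take in the spread between these samples, estimated in part over all genes, and those of Fisher's exact test counting error only. Simulated data with known changes were used to check the tests. There edgeR recovered 99 of 100 2-fold and 100 of 100 4-fold changes, with 15 false calls among 18591 genes. Fisher's exact test recovered 196 of 200 changed comparisons, with 22 false calls among 11500. Those tags were simulated without variation between embryos, as Fisher's exact test assumes, so its false calls in the real data cannot be judged from them. The changed comparisons were drawn from those with many tags and intermediate inclusion. Recovery of level changes below 2-fold was not tested, nor was recovery at the coverage and inclusion of the regulators' own comparisons.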

Additional observations from a re-analysis of the deposited data

How the results depend on the processing

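No regulator was called for its level under any alternative, with each embryo left out included, and 1 splicing comparison was called without *Qk* cKO embryo 1 (range 0 to 1 over the embryos left out), the 72-nt choice of *Cux1*. Of the other 39 layer genes, 1 was called without *Qk* cKO embryo 1 (range 0 to 1). The number of all genes called, 110 in the main test, was 57 with edgeR's exact test, 11 with edgeR's filterByExpr, 10 with a mean RPKM of at least 1 in both groups and 0 to 428 with each embryo left out, the ends being without control embryo 2 and without *Qk* cKO embryo 1. A replicate block gave 192. The number of all comparisons called, 862, was 64 with edgeR's interaction test and 488 to 722 with each embryo left out. Settings that change only the test, the coverage or the adjustment leave Δ*I* as it is, so it could not reverse there. Of the 190 values recalculated for single regulators, comparisons and the CASP share, 7 reversed, all with an embryo left out. These were the log2 fold changes of *Bcl11b* (-0.0052 without *Qk* cKO embryo 2, up to 0.16), *Foxp2* (0.16 without control embryo 2, down to -0.36) and *Cux2* (0.035 without control embryo 2, down to -0.099), and Δ*I* of the *Bcl11b* 216-nt exon (0.020 without *Qk* cKO embryo 2, down to -0.082), the *Sox5* 147-nt exon (0.021 without control embryo 2), and of the 72-nt (-0.0055) and 78-nt (-0.057) choices of *Cux1* without *Qk* cKO embryo 2, which were 0.168 and 0.090 without *Qk* cKO embryo 1. The CASP junction difference was 19.3 percentage points of exon 11 tags with that junction as denominator, and 1.74 with the 66-nt exon as the homeodomain form, instead of 9.05. With an embryo left out, the lone embryo of its group is assumed to vary like the other group. The cause of these changes was not tested.

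The labels do not tell whether same-numbered embryos were littermates, and the following correlations cannot decide it. Same-numbered samples deviated together with a correlation of 0.303 over 12928 expressed genes, but -0.081 over autosomal genes and -0.014 over splicing comparisons. The first value was thus not seen once genes not placed on an autosome were left out. The sex of the embryos is not in the labels, and its part in this was not tested. With the replicate number as a block, 0 regulators and 0 of their comparisons were called. With 2 embryos per group, counting error and spread between embryos limit what can be seen. The intervals of inclusion leave the spread between embryos out, and those of edgeR rest in part on variance estimated over all genes. The intervals are therefore not firm bounds on the true differences.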
